A study of Mus musculus with 3 samples.

Results

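The loss of Stra8 was examined on a background that already lacked Cyp26b1, by setting 2 arrays of double knockout gonads against 2 arrays of Cyp26b1 knockout gonads. All gonads were male and from mouse embryos at embryonic day 14.5 of the MCH line. The Cyp26b1 knockout was Cyp26b1-/- with both Stra8 alleles intact (Stra8+/+), and the double knockout was Cyp26b1-/- and Stra8-/-, so both lacked Cyp26b1 and the labelled genotypes differ in Stra8. Wild type gonads (Cyp26b1+/+ and Stra8+/+), also on 2 arrays, are given for reference. Of 41149 probes on the 1-colour Agilent array, 27286 were read as well above background by both arrays of 1 knockout genotype or of both. Kept as 1 probe per gene, these made 21061 features, of which 13101 had a gene symbol, out of 21552 features when the same filter is applied over all 3 genotypes.

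CYP26B1 is an enzyme that breaks down retinoic acid. In the fetal testis, where Sertoli cells make it, it keeps retinoic acid away from the germ cells, which then arrest and take up the male programme. In the fetal ovary retinoic acid persists and induces Stra8, whose protein acts with its partner MEIOSIN at gene promoters when germ cells leave mitosis and enter meiotic prophase. When Cyp26b1 is missing, male germ cells are therefore exposed to retinoic acid. The comparison asks which parts of the gene expression of such gonads differ when Stra8 is missing as well.

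It is not stated if each array held RNA of 1 embryo or of several, nor which parts of the genes were deleted. The 75th percentile of the processed intensity ran from 974 to 1494 over the 6 arrays, and 61.9% to 68.6% of probes were well above background. The series is described as biological duplicates, and p-values here measure only the spread between these arrays. Within a genotype the log2 signals of the 2 arrays had Pearson r of 0.994 to 0.996 across features, and the SD of their differences was 0.298 in the Cyp26b1 knockout and 0.290 in the double knockout. The 2 double knockout arrays lay on 1 slide, scanned on the same day as the wild type slide, and the 2 Cyp26b1 knockout arrays lay on another slide that was scanned on a different day. The slide, the scan day and the loss of Stra8 cannot be told apart here. In the same fit 50.7% of the features differed between Cyp26b1 knockout and wild type and 11.2% between double knockout and wild type, and these comparisons share arrays with the one described here. In whole gonads, fewer cells of a type and less RNA per cell cannot be told apart either.

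Values below are log2 signals minus the log2 of the 75th percentile of all probes on that array. Changes are double knockout minus Cyp26b1 knockout, with the standard error (SE) of the fit and n = 2 arrays per genotype. A gene is called when limma's adjusted p, by Benjamini-Hochberg over all 21061 features, is under 0.05.

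The targeted genes were read first. Stra8 was at 7.19 and 7.04 on the arrays labelled Cyp26b1 knockout, at 5.98 and 6.14 on those labelled double knockout and at 3.73 and 2.41 in wild type. The double knockout was thus dimmer than the Cyp26b1 knockout on both arrays yet far brighter than wild type, and the groups did not overlap. Between the 2 knockouts 72.2% of all features did not overlap either, among them every called feature. The fall was 1.05 on the log2 scale (SE 0.36, limma adjusted p = 0.0474). Leaving out each of the 4 knockout arrays in turn gave changes of -1.14 to -0.97 and ended the call. The shared spread of the fit includes the wild type arrays. Fitted on the 4 knockout arrays alone, the same fall had limma adjusted p = 0.0027. The sources used here do not place the Stra8 probe relative to the deleted part. A probe outside that part would still read transcript of the disrupted allele, so this signal checks the label neither way, and every direction below is between arrays so labelled. Cyp26b1 was at 4.27 and 3.83 in the Cyp26b1 knockout and 4.11 and 3.91 in the double knockout, beside 4.03 and 3.83 in wild type. Its change of -0.04 (SE 0.15) was not called (limma adjusted p = 0.856), and its probe also read signal in both genotypes that lack the gene.

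Gene expression differed widely. Of the 21061 features, 9267 were called, which is 44.0% of those tested. The double knockout was the higher genotype for 5441 of these (25.8%) and the lower for 3826 (18.2%). Of the 13101 genes with a symbol, 47.4% were called, 29.2% as higher and 18.2% as lower, and these shares are the background for every count of genes below. Larger changes leaned the other way. At 2-fold or more, 783 features were higher and 1247 lower.

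Rises were more frequent among brighter features and falls less so among the brightest. Features were ordered by mean level into 10 bins. In the dimmest bin 23.1% were lower and 6.55% higher, with a median change of -0.38. Over the next 7 bins the share lower lay between 15.9% and 22.5%, with no steady order, while the share higher went from 11.1% to 38%. It was 40.4% in the ninth bin, where 11.8% were lower. In the brightest bin 40.2% were higher and 6.08% lower, with a median change of 0.23. In all, 1106 features were well above background on both Cyp26b1 knockout arrays and on neither double knockout array, against 61 the other way round. The filter kept these features through 1 genotype alone, and they count in the bins above. Of all probes, 68.6% and 67.0% were well above background on the Cyp26b1 knockout arrays and 61.9% and 63.0% on the double knockout arrays. The median change over all features was 0.085. With the authors' value table as the scaling every change is lower by 0.30 and the split becomes 2060 features higher and 7146 lower, so the direction of small changes rests on the scaling. What this pattern with signal level is due to was not tested.

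**Figure D1:**
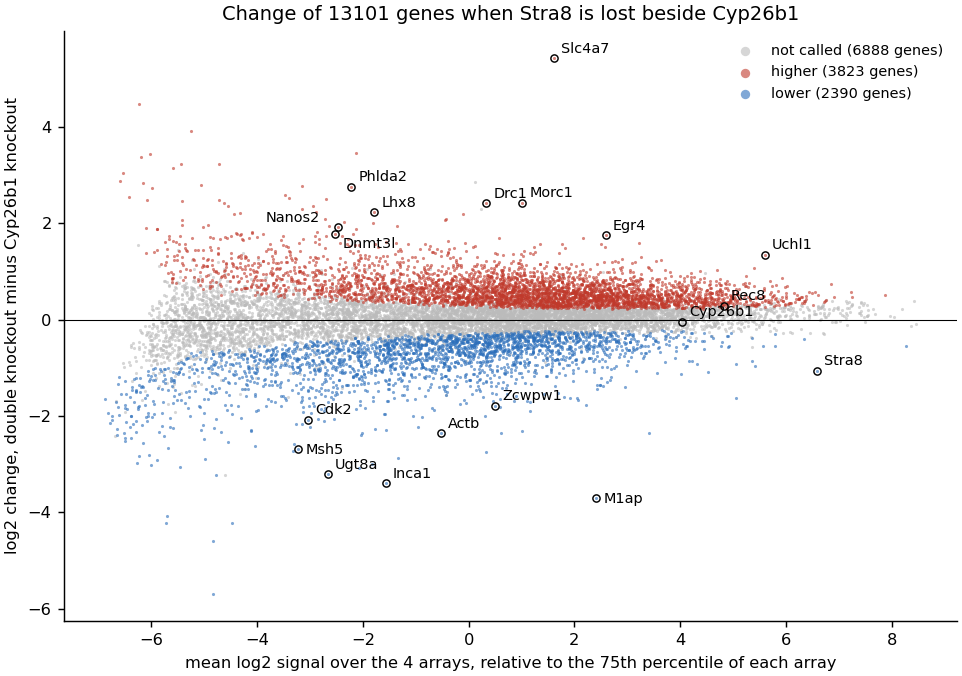
Log2 change (double knockout minus Cyp26b1 knockout, vertical axis) of 13101 genes against their mean log2 signal over the 4 arrays (horizontal axis), each point 1 gene, with called genes in red (3823 higher) and blue (2390 lower) and labelled genes ringed. M1ap lies at -3.69 among well-measured genes, while Rec8 and Cyp26b1 lie near 0.

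Among the 22 gene lists first drawn up, the largest shares of falls were in lists of meiotic genes. All lists were chosen with earlier results of these data known, so their shares are a description only. A list of Rhox genes, added after values were seen, had a larger share lower (66.7% of 6 tested). Over 4 lists of meiotic genes, 41 genes were tested. In the double knockout 21 of them were lower (51.2%, beside 18.2% of all genes), 4 were higher (9.76%, beside 29.2%) and 16 were not called. The 21 include Stra8 itself, the gene whose loss is examined, and Ugt8a, the gene of an enzyme that makes galactosylceramide. The falls took in genes that tether telomeres to the nuclear envelope, the meiotic recombinase and crossover factors, while several axis genes differed little. With background corrected by normexp fitted on all spots, only 3 of the entry list, 3 of the axis list and 3 of the recombination list were still called lower. The median of each list stayed below 0, and 1074 of all 21061 features were called lower in that setting. With normexp fitted without spots marked as outliers, the counts lower in these lists were 8, 4 and 7.

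In the list of meiotic entry and regulation, 8 of 13 tested genes fell, 1 rose and 4 were not called. Stra8 itself is among the 8. The median change was -1.05, which is the value of Stra8, or -0.87 over the 12 measured on all 4 arrays. Terb1, which joins meiotic telomeres to the nuclear envelope, was at -2.18 and -1.72 in the Cyp26b1 knockout and at -4.28 and -5.06 in the double knockout (-2.72, SE 0.34, limma adjusted p = 0.00123). Kash5, which links those telomeres to the cytoskeletal motor dynein, was at -1.85 and -1.75 and then at -3.42 and -3.40 (-1.61, SE 0.16). In both genes the genotypes were well apart, and wild type lay low as well, at -3.26 and -4.0 for Terb1 and -3.91 and -4.18 for Kash5.

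Cdk2, a cyclin-dependent kinase that sits on meiotic telomeres and crossover sites, was at -2.00 and -1.98 in the Cyp26b1 knockout and at -3.87 and -4.27 in the double knockout. Its fall was 2.08 on the log2 scale (SE 0.19, limma adjusted p = 0.000529), although another, dimmer probe differed by -0.72. The cyclins that pair with CDK2 fell too, Ccne2 by 1.15 and Ccne1 by 0.69 on the log2 scale. Cntd1, a cyclin-like crossover factor, was not well above background in the double knockout and was at least 3.27-fold lower. Mns1, a coiled-coil protein of germ cells and cilia, went the other way, from 2.39 and 2.59 to 3.73 and 3.63 (1.19, SE 0.11, limma adjusted p = 0.000529). Dazl, a germ cell RNA-binding protein that precedes Stra8 in the pathway, differed by -0.15 at its brighter probe and by -0.78 at the other. It was not called, and neither were Ccnb3 (-0.42), Sun1 (-0.10) and Tex14 (0.32).

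Among genes of the meiotic cohesin complex and chromosome axis, 4 of 8 fell and 1 rose, with a median change of -0.50. Smc3, a cohesin subunit of every cell, went from 3.19 and 3.22 to 2.49 and 2.68 (-0.62, SE 0.10, limma adjusted p = 0.00243). Stag3, the meiotic cohesin subunit, went from 3.81 and 4.09 to 3.15 and 3.39 (-0.68, SE 0.13). The axis proteins Sycp3 and Sycp2 changed by -0.70 and -0.66. These falls were small beside those of Terb1 or Msh5. The genotypes did not overlap in any of the 4, as in 72.2% of all features and in every called one.

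Rec8, the meiosis-specific kleisin subunit of cohesin and a gene that retinoic acid induces, did not share the fall. It was at 4.88 and 4.47 in the Cyp26b1 knockout and at 4.82 and 5.12 in the double knockout, far above the 1.81 and 2.02 of wild type. Its change of 0.29 (SE 0.16) was not called (limma adjusted p = 0.178). Hormad1, an axis protein that monitors synapsis, differed by -0.11, and Smc1b, another meiotic cohesin subunit, by -0.39, with limma adjusted p = 0.409 and 0.162. Trip13, which removes HORMAD proteins from the axis, rose by 0.34, a call lost in 9 of 20 other settings.

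The list for the centre of the synaptonemal complex, the structure that holds paired chromosomes together, showed least. Of 5 tested genes 1 fell and the other 4 were not called. 4930447C04Rik, also known as Six6os1, changed by -0.54 (SE 0.19, limma adjusted p = 0.0495), a call lost in 10 of 20 other settings (without single arrays -0.80 to -0.29, limma adjusted p up to 0.233). Its other measured probes differed by 0.44 and -0.79. Syce2 (-0.36), Tex11 (-0.40), Tex12 (0.04) and the transverse filament gene Sycp1 (0.11) were not called. Tex11 and Sycp1 are not genes of the central element, so the list is wider than that element.

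Among genes of meiotic recombination and crossover formation, 8 of 15 fell and 2 rose, with a median change of -0.45. Msh5, which stabilises crossover intermediates, was at -2.08 and -1.67 in the Cyp26b1 knockout, at -4.57 and -4.55 in the double knockout and at -4.13 and -4.12 in wild type. This is a 6.43-fold fall (-2.69, SE 0.19, limma adjusted p = 0.00041), and a second probe differed by -2.08. Dmc1, the meiosis-specific recombinase, was at -0.83 and -0.85, then -3.10 and -3.36, beside -2.46 and -3.42 in wild type (-2.39, SE 0.29, limma adjusted p = 0.00108). The double knockout was below wild type in Msh5 and overlapped it in Dmc1.

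Zcwpw1, a histone reader at recombination sites, went from 1.24 and 1.55 to -0.29 and -0.48 (-1.78, SE 0.16), with a second probe at -0.34. 4930432K21Rik, also known as Brme1 and a partner of the BRCA2 machinery in meiosis, went from 1.53 and 1.55 to 0.46 and 0.39 (-1.11, SE 0.08). Hfm1, a crossover helicase, was not well above background in the double knockout and was at least 2.89-fold lower. Msh4, the partner of Msh5, changed by -0.90, and the repair genes Rad51c and Brca2, which mitotic cells also use, by -0.70 and -0.45.

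Part of the recombination list did not fall. Spo11, the nuclease that makes meiotic DNA breaks, was at -2.21 and -1.87 and then at -2.37 and -2.16 (-0.22, limma adjusted p = 0.286). Xrcc2 (-0.21) and Tex15 (-0.38) were not called either. Mnd1, whose product helps DMC1 invade DNA, rose from 1.59 and 1.12 to 2.38 and 2.45 (1.06, SE 0.14, limma adjusted p = 0.00156), and its partner Psmc3ip rose by 0.27. Under the authors' own scaling 1 gene of this list was higher and 12 were lower. Mnd1 in wild type was at 2.66 and 2.62, so the Cyp26b1 knockout was the low genotype there.

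**Figure D2:**
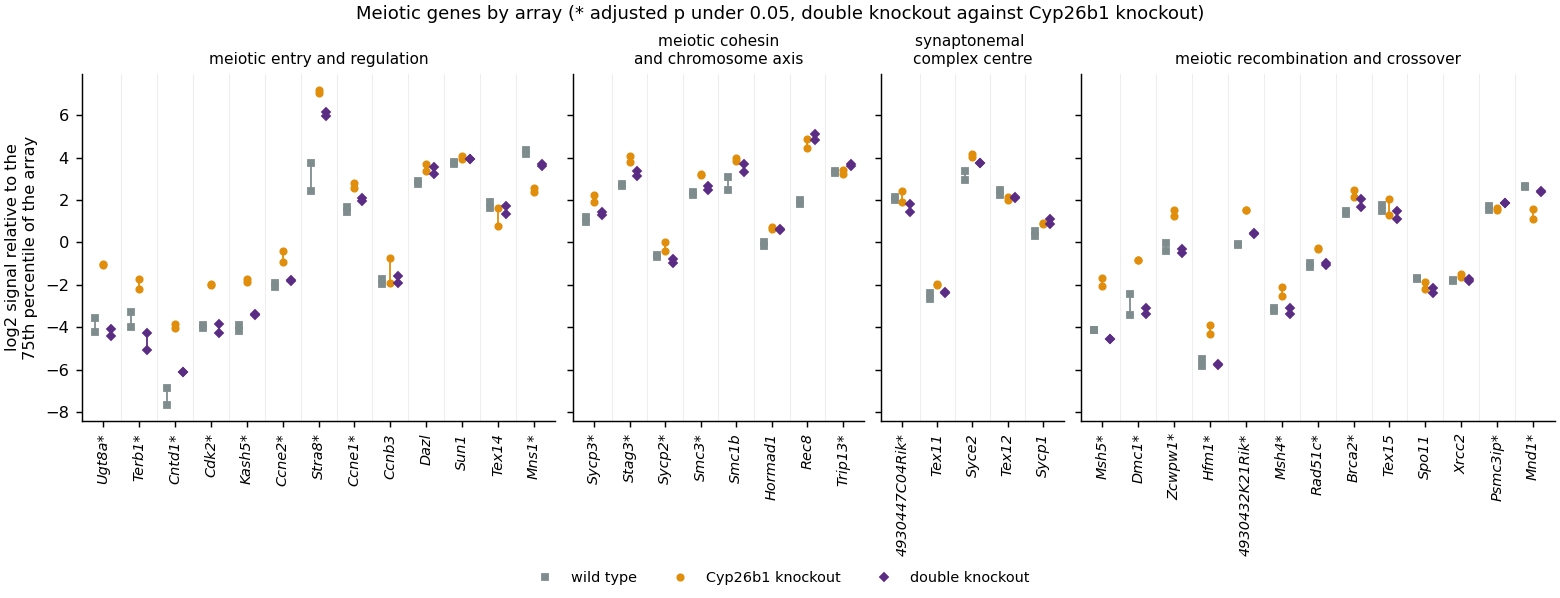
Log2 signal, scaled to each array's 75th percentile (vertical axis), of tested meiotic genes on each of the 6 arrays, 2 points per genotype joined by a line, ordered by change within each list. Ugt8a, Terb1, Msh5 and Dmc1 drop from the Cyp26b1 knockout to the double knockout, while Rec8 stays high in both and Mns1 and Mnd1 go up.

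The largest single falls included genes outside these lists. M1ap, a gene needed for male meiosis, was at 4.18 and 4.34 in the Cyp26b1 knockout, at 0.63 and 0.51 in the double knockout and at 2.03 and 1.20 in wild type. It fell 12.9-fold (-3.69, SE 0.24, limma adjusted p = 0.000308), the largest fall among genes measured on all 4 arrays. Inca1, an inhibitor that binds CDK2 complexes, was at 0.00 and 0.26, then -3.34 and -3.19, a 10.5-fold fall (-3.39, SE 0.25). Ugt8a, the enzyme that makes galactosylceramide, was at -1.07 and -1.03, then -4.42 and -4.10 (-3.21, SE 0.24), with a second probe at -3.24. In each of these genes the 2 genotypes were over 3 log2 units apart while the arrays of each genotype lay close together.

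Lypd4, a surface protein of the Ly6 family, fell by 3.07 on the log2 scale (SE 0.17), from -0.54 and -0.53 to -3.43 and -3.78. The other genes of the 15 largest falls were H2-Ab1 (-2.99), a chain of class II histocompatibility molecules, Timmdc1 (-2.87), a factor of respiratory complex I assembly, the Nodal antagonist Lefty1 (-2.74), Terb1, Msh5, BC051142 (-2.57), Dmc1, Pparg (-2.36), a nuclear receptor of lipid metabolism, Fbxo2 (-2.35), Actb (-2.35) and the homeobox gene Rhox6 (-2.34). Of these, 3 are members of the meiotic lists besides Ugt8a. For Fbxo2 the fall was seen at 1 probe, and the remaining ones gave 0.01 and -0.32. The probe of Actb, the cytoplasmic actin often used as a reference gene, was at 0.56 and 0.73 in the Cyp26b1 knockout and at -1.60 and -1.81 in the double knockout.

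Falls known only as a bound were led by 4930524B15Rik, at least 12.6-fold lower, Lalba, a milk protein (9.66-fold), Tgm1, a transglutaminase of skin (8.54-fold), Slc25a42, a mitochondrial coenzyme A carrier (6.19-fold), the eye and brain regulator Pax6 (5.59-fold) and Zfp251 (5.16-fold). The bound sets the Cyp26b1 knockout mean against the lowest signal well above background on the double knockout arrays, or the probe's own signal where that was higher, as it was for Slc25a42. A second Pax6 probe, below background on all 4 arrays, differed by 0.77. None of these 6 was called when background was corrected by normexp fitted on all spots (adjusted p from 0.169 to 0.966).

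STRA8 with MEIOSIN is known to occupy the motif CNCCTCAG near gene starts, and promoters were read for it as a description only. Binding of STRA8 was not tested. The motif was searched on both strands of the RefSeq promoters of assembly GRCm38.p6, from 250 bases before to 50 bases after each gene start, and it was the only motif searched. The sequences below were picked to show the motif in promoters of genes that fell, 4 of them among the 15 largest falls, and Hfm1 because the motif occurs there on both strands. Dmc1 is the contrast, a strong fall without these letters, as are Timmdc1 and Terb1, which are not printed. Each sequence is written 5′ to 3′ along the strand of its gene, and capitals mark every match, on either strand.
M1ap, chr6:82946672-82946971, plus strand: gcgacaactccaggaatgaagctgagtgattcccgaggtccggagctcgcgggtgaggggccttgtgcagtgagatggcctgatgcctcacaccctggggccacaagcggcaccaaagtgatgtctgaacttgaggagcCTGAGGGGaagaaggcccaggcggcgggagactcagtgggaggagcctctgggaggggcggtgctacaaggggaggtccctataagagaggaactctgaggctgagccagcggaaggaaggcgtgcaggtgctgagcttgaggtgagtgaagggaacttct
Inca1, chr11:70700106-70700405, minus strand: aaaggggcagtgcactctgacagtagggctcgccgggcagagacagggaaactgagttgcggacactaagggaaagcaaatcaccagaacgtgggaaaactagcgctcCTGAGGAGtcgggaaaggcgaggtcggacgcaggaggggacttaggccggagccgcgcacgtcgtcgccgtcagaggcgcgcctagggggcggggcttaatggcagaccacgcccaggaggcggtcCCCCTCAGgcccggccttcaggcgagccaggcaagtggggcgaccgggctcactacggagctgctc
Ugt8a, chr3:125938603-125938902, minus strand: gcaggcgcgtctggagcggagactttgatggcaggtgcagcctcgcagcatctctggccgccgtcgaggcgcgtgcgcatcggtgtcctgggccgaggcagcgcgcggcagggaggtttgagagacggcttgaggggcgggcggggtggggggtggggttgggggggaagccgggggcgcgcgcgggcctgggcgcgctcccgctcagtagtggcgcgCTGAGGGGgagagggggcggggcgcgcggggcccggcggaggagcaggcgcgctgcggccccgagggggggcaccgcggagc
Msh5, chr17:35046573-35046872, minus strand: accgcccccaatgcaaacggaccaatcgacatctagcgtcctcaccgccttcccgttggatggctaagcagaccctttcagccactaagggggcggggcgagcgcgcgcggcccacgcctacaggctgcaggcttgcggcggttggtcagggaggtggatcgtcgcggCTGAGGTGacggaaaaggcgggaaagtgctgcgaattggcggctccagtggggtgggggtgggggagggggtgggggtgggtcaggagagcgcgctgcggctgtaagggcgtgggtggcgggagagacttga
Hfm1, chr5:106925841-106926140, minus strand: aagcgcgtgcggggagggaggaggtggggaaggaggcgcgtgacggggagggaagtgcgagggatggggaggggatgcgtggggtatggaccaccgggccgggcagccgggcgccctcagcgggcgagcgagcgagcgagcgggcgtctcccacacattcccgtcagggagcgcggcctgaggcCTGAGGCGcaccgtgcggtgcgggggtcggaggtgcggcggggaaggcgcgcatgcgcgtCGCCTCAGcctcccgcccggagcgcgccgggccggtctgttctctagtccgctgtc
Dmc1, chr15:79605060-79605359, minus strand: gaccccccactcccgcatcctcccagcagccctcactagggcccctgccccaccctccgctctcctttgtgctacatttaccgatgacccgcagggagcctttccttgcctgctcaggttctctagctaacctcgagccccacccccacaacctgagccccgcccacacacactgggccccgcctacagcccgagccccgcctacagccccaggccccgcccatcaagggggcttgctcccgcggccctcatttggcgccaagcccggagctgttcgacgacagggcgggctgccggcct

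The matches lay close to the gene start, at position -111 in M1ap, -142 and -16 in Inca1, -32 in Ugt8a, -82 in Msh5 and -66 and -6 in Hfm1, counted from the gene start. Lypd4 (-79), Cdk2 (-89), Ccne1 (-83) and Pparg (-34) also held the motif. Terb1, Zcwpw1, Msh4, Stag3 and Smc3 fell and did not hold it in this window, and Dnmt3l, Tdrd7, Asz1 and Fkbp6, which rose, held it. In Pparg, Dnmt3l and Tdrd7 it lay in 1 of 3 promoters.

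Of 10452 tested genes with a promoter in the table, 1153 held the motif (11.0%, 95% Wilson interval 10.4% to 11.6%). Of 32851 promoters in the whole table, 7.94% did. Among genes that fell it was 247 of 1916 (12.9%, 11.5% to 14.5%) and among genes that rose 290 of 3047 (9.52%, 8.53% to 10.6%), while genes not called stood at 11.2%. The difference between falling and rising genes was thus small in absolute terms.

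Among falls of 2-fold or more the share was 13.4% (10.7% to 16.7%) and among rises of that size 10.1% (7.42% to 13.7%). Of the 15 largest falls 11 had a promoter entry, and 6 of these 11 held the motif. Of the 15 largest rises 11 had an entry and 0 of 11 held it (interval up to 25.9%). Both sets were picked by their change and added after the values were seen. In the meiotic lists the motif was as common among genes that fell (6 of 20, 30.0%) as among those that did not (5 of 14, 35.7%), with intervals that overlap widely. Of the genes of male germ cell fate and the piRNA pathway that rose, described below, 4 of 10 held it (40.0%, 16.8% to 68.7%). The motif was thus frequent in the meiotic promoters whether or not the gene fell. Genes with several promoters count as holding the motif if any holds it, and the intervals cover counting error only.

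**Figure D3:**
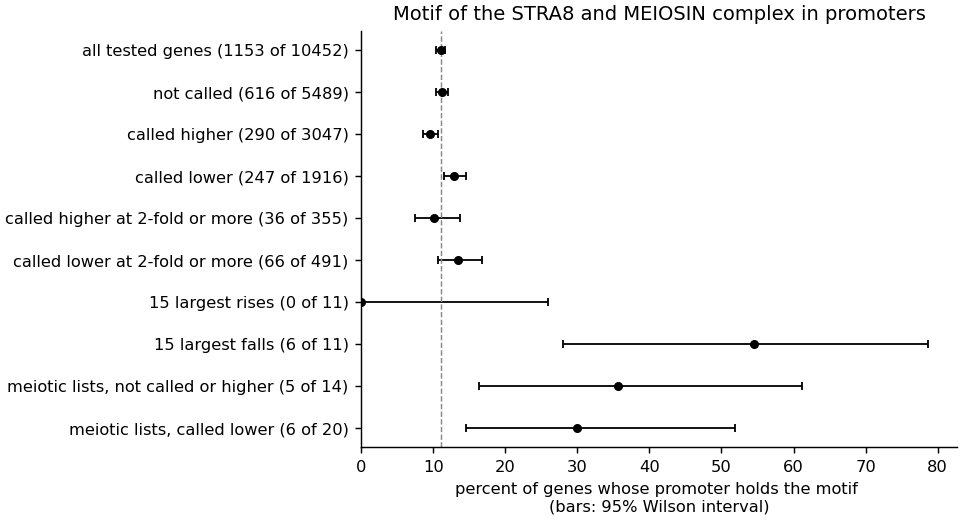
Percent of genes whose promoter holds the motif on either strand (horizontal axis), for sets of tested genes with a promoter entry (vertical axis, with counts), points with 95% Wilson intervals and a dashed line at the 11.0% of all tested genes. The 15 largest falls stand highest at 54.5% with a wide interval, and the sets of all falling and all rising genes lie close to the line.

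The piRNA pathway silences transposons in fetal male germ cells. Among the 22 lists first drawn up, genes of male germ cell fate and of this pathway had the largest share of rises. Of 18 tested genes 13 rose (72.2%, beside 29.2% of all genes), 2 fell and 3 were not called, with a median change of 0.88. The counts were 11 higher and 2 lower under the authors' own scaling. The summed signal of the list, in units of each array's 75th percentile, was 68.2 and 72.6 in the Cyp26b1 knockout, 128 and 125 in the double knockout and 170 and 184 in wild type. The double knockout lay between the other genotypes on this sum.

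Nanos2, the RNA-binding protein that fixes male fate and blocks meiosis, was at -3.29 and -3.58 in the Cyp26b1 knockout, at -1.91 and -1.11 in the double knockout and at -0.62 and -0.38 in wild type (1.92, SE 0.26, limma adjusted p = 0.00149). Nanos3, which protects migrating germ cells, went from -2.28 and -2.37 to -0.68 and -0.08, beside -0.81 and -0.69 in wild type (1.95, SE 0.19). Dnd1, an RNA-binding partner of NANOS proteins, went from 1.79 and 1.5 to 2.60 and 2.77, with wild type at 3.53 and 3.78 (1.04, SE 0.13). Both knockouts were apart in each of these genes, with the double knockout nearer to wild type.

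Egr4, a zinc finger transcription factor, had the smallest p of the list. It was at 1.66 and 1.75 in the Cyp26b1 knockout, 3.45 and 3.48 in the double knockout and 3.69 and 3.75 in wild type (1.76, SE 0.08, limma adjusted p = 0.000183). Ddx25, a germ cell RNA helicase, went from 2.35 and 2.52 to 4.11 and 3.93, beside 4.33 and 4.41 (1.59, SE 0.10), and a second probe differed by 0.98. Morc1, an ATPase of transposon silencing, went from -0.75 and 0.36 to 2.03 and 2.44, beside 3.0 and 3.20, a 5.40-fold rise (2.43, SE 0.32).

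Dnmt3l, the cofactor of de novo DNA methylation in male germ cells, was at -3.88 and -2.94, then -1.10 and -2.16, with wild type at 3.55 and 3.69 (1.78, SE 0.38, limma adjusted p = 0.00872). Its double knockout level was thus still far below wild type, unlike Egr4 or Ddx25. The de novo methyltransferase Dnmt3a differed by 0.59 and was not called. In the piRNA pathway, the tudor protein Tdrd1 rose by 1.5, the PIWI protein Piwil2 by 0.91, Asz1 by 0.86, Mael by 0.63, Tdrd7 by 0.58 and Fkbp6 by 0.45. Mov10l1 (0.28) and Tdrd12 (0.04) were not called. Henmt1, the methyltransferase that modifies piRNAs, is outside the list but among the largest rises (2.51, SE 0.35), from -4.56 and -3.32 to -1.38 and -1.49.

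The list's 2 falls were in Lhx1, a LIM homeobox gene that the mesonephros also expresses (-1.14, SE 0.22), and in the zinc finger gene Bnc2 (-0.79). Lhx1 was at -2.75 and -3.37 in the Cyp26b1 knockout, -4.20 and -4.18 in the double knockout and -2.35 and -2.17 in wild type, so here the double knockout was farther from wild type.

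**Figure D4:**
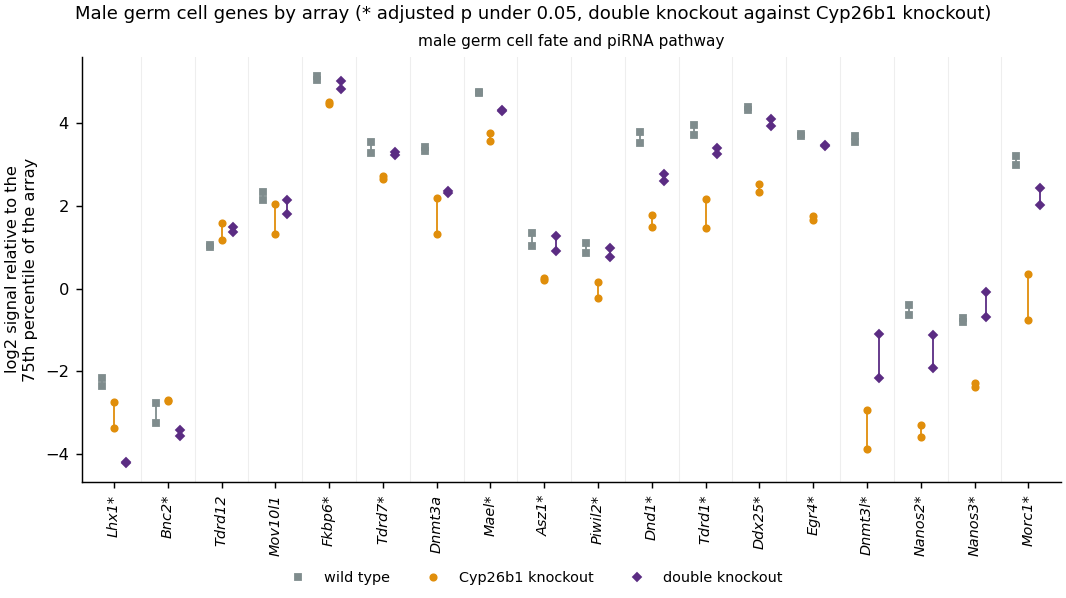
Log2 signal, scaled to each array's 75th percentile (vertical axis), of the 18 tested genes of male germ cell fate and the piRNA pathway on each of the 6 arrays, 2 points per genotype joined by a line, ordered by change. Egr4 and Ddx25 in the double knockout lie near wild type, while Dnmt3l stays low at -1.10 and -2.16.

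The other large rises were led by Slc4a7, a sodium bicarbonate transporter, at -1.0 and -1.22 in the Cyp26b1 knockout and 4.01 and 4.64 in the double knockout (5.44, SE 0.21). Its other probes differed by only 0.53 and 0.15, so the size belongs to that probe. Phlda2, an imprinted gene of placental growth, went from -3.64 and -3.56 to -0.85 and -0.83 (2.76, SE 0.11), and a second probe gave 2.41. Lhx8, a transcription factor of early oocytes, went from -3.63 and -2.18 to -0.73 and -0.61, beside -4.13 and -4.25 in wild type (2.23, SE 0.40), so it was highest in the double knockout.

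Sly (3.46), a multicopy Y-linked gene whose copies the array cannot separate, Car6 (2.77), a secreted carbonic anhydrase, Fbxw13 (2.60), Nlrp4f (2.54), Henmt1, Morc1, Drc1 (2.42), a part of the dynein regulatory complex of cilia, Spint4 (2.36), the vesicular GABA transporter Slc32a1 (2.35), the lectin Clec2g (2.29), the histamine receptor Hrh1 (2.24) and Batf2 (2.21) complete the 15 largest rises. Wild type was also high for most of these, for example 3.56 and 3.89 for Drc1, while Fbxw13 and Spint4 were high in the double knockout alone. Rises known only as a bound were at least 7.85-fold for Ceacam10, 5.63-fold for Pdzph1, 5.04-fold for Nat3, 4.90-fold for Bco1, which cleaves beta-carotene into retinal, 4.38-fold for St8sia3 and 4.01-fold for Il22. None of these 6 was called either with normexp fitted on all spots (limma adjusted p from 0.391 to 0.936).

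Retinoic acid signalling genes did not move as a group. Of 29 tested, 8 rose (27.6%) and 6 fell (20.7%), both near the background, with a median of 0.16. Under the authors' own scaling 2 rose and 8 fell, and the median was -0.14. Rarb, a receptor gene that retinoic acid itself induces, was at 0.40 and 0.53 in the Cyp26b1 knockout, at 0.44 and 0.40 in the double knockout and at -1.52 and -1.44 in wild type. Cyp26a1, another degrading enzyme and direct target, was at -1.36 and -0.90, then -0.83 and -1.01, beside -5.46 and -6.48. Both target genes stood high in both knockouts. Their changes of -0.04 (SE 0.10) and 0.21 (SE 0.32) were not called (limma adjusted p = 0.74 and 0.634).

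Among receptors, Rara, the alpha receptor of retinoic acid, changed by -1.33 (SE 0.22) at a dim probe, from -3.32 and -3.76 to -4.95 and -4.79. The partner receptor Rxrb changed by -0.56 and its second probe by -1.31. Among carriers, the plasma retinol carrier Rbp4 rose by 0.57, from 1.16 and 1.26 to 1.84 and 1.73. Meis2, a homeobox gene responsive to retinoic acid, rose by 0.57. The synthesis enzymes Aldh1a2 and Aldh1a3 rose by 0.30 and 0.41, and Aldh1a1 differed by 0.20 and was not called. Stra8 itself belongs to this list as well as to that of meiotic entry. Changes in the list ran from -2.51 to 0.947, so members not named here differed more than those named.

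The list of general germ cell markers had 21 tested genes, of which 4 rose and 7 fell. Ddx4, an RNA helicase of all germ cells, was at 4.04 and 3.91 in the Cyp26b1 knockout and 4.31 and 4.35 in the double knockout (0.36, SE 0.10, limma adjusted p = 0.022). This call was lost in 9 of 20 other settings. Dppa3, another germ cell marker, was at 4.64 and 3.87, then 4.25 and 4.74, and was not called (0.24, limma adjusted p = 0.485). Both markers were thus read in both genotypes. The falls included Rhox6 (-2.34), Rhox9 (-1.69), Rbm44 (-1.35), a protein of germ cell bridges, and Tex101 (-0.91), a surface protein of male germ cells. Rhox genes have near-identical copies that the probes may not separate.

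Among pluripotency and Nodal genes 4 of 22 rose and 4 fell. The count depended on the Cyp26b1 knockout array used, with 7 higher and 4 lower without array 1 (median 0.31) and 2 and 11 without array 2 (median -0.72), and the summed signal of the list was 104 and 57.0 on these arrays. The Nodal antagonists were the low members. Lefty1 went from 2.41 and 0.97 to -1.51 and -0.59, beside -2.28 and -2.87 in wild type (-2.74, SE 0.48, limma adjusted p = 0.00395), and Lefty2 from 0.52 and 0.05 to -1.06 and -1.14 (-1.38, SE 0.16). Acvr2b, a receptor of activin and Nodal, changed by -1.12 and the Nodal effector Foxh1 by -0.69. The pluripotency genes Pou5f1 (-0.19), Nanog (-0.94) and Sox2 (-0.50) were not called. Klf4 rose by 0.79 and the nuclear receptor Nr0b1 by 0.65.

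Of 11 tested oocyte genes 2 rose and 3 fell, and 8 others on the array, among them the zona pellucida genes Zp2 and Zp3, were too dim to be tested. Sohlh2, a transcription factor of early oocytes and spermatogonia, was at 1.93 and 1.45 in the Cyp26b1 knockout, at -0.13 and 0.33 in the double knockout and at -2.00 and -2.55 in wild type (-1.59, SE 0.24). Lhx8 and Uchl1, a ubiquitin hydrolase of germ cells, rose instead, Uchl1 from 4.75 and 5.10 to 6.35 and 6.20 (1.35, SE 0.13). The regulators Figla (0.14) and Nobox (-0.01) were not called, and neither were 4 others of the 11.

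Cell cycle genes leaned towards falls. Of 36 genes of replication and mitosis, 12 fell (33.3%, beside 18.2%) and 4 rose (11.1%, beside 29.2%), with a median of -0.07 that turned to 0.05 under another scaling. With the authors' scaling, 20 of the 36 fell, and so did 7146 of all 21061 features. Cdk2 and Ccne2 are counted both here and in the list of meiotic entry. Mcm3, a subunit of the replicative helicase, went from 2.59 and 2.44 to 1.47 and 1.38 (-1.10, SE 0.09, limma adjusted p = 0.000418). Cdc45, which activates that helicase, changed by -1.13 (SE 0.10) and the spindle checkpoint kinase Bub1b by -0.80 (SE 0.09). Helicase subunits did not move together, since Mcm4 rose by 0.39, and Mcm6 (0.23) and Mcm7 (0.17) were not called.

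Of 16 cell cycle inhibitors 3 rose and 2 fell. Cdkn1c, an inhibitor of fetal growth, rose by 0.66, from 4.07 and 3.99 to 4.71 and 4.66, and Cdkn2b by 0.60. Wee1, the kinase that restrains mitotic entry, changed by -0.78. Of 28 genes of p53 signalling and apoptosis 11 rose and 4 fell, which became 2 and 10 under the authors' own scaling, so no direction is given for the list. The death receptor Fas rose by 0.96 and Casp8 changed by -0.45. Trp53 differed by 1.12 at its brightest probe and by -0.79 at the other.

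The somatic cells of the gonad were read by their markers. Of 28 Sertoli cell genes, 7 rose and 5 fell, with a median of 0.01, which became 2 and 11 with a median of -0.29 under the authors' own scaling. The defining markers Amh, the hormone that removes the female ducts (1.25 and 1.03, then 1.14 and 1.02), and Dhh, the signal to Leydig cells (4.83 and 4.65, then 4.76 and 4.59), were not called. Sox9, the master factor of Sertoli cells, differed by 0.43, 0.06 and -0.50 at 3 probes. Most of this list differed little, and Dmrt1, which germ cells share with Sertoli cells, was its largest fall, from -0.20 and -0.18 to -1.91 and -1.74 (-1.64, SE 0.20, limma adjusted p = 0.00113). Hsd17b3 and Gata4 changed by -0.88 and -0.86, and the junction gene Cldn11 rose by 0.90.

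Of 18 fetal Leydig cell genes 6 rose and 4 fell, or 2 and 6 under the authors' own scaling. The steroid enzyme Cyp17a1 was not called (-0.02), while Star, the cholesterol carrier, rose by 0.60, and the electron donors of steroid synthesis Fdx1 and Fdxr rose by 0.71 and 0.53. Hsd17b7 rose by 1.22 at 1 probe and differed by 0.09 at another. Of 17 tested ovarian somatic genes 7 rose and 3 fell, with a median of 0.53, or 3 and 3 under the authors' own scaling. The ovarian signal Wnt4 changed by -0.46, whereas Lgr5, a receptor of R-spondins, rose by 0.89 and the homeobox gene Msx2 by 1.20. Foxl2, the defining factor of ovarian granulosa cells, did not stand well above background in either genotype. Fst rose by 0.80 at a low level, from -4.82 and -5.00 to -3.80 and -4.41, a call lost in 11 of 20 other settings (without single arrays 0.49 to 1.11, limma adjusted p up to 0.188).

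Interstitial and peritubular genes counted 9 of 23 higher and 3 lower. These counts became 5 and 6 under the authors' own scaling and 5 and 4 with the mean of a gene's probes. The list was led by the matrix protein decorin, Dcn, from 4.75 and 4.97 to 5.92 and 5.96 (1.08, SE 0.10). Pdgfra and Lhx9 differed by 0.89 and 0.64 at the brightest probe and by -1.06 and -1.04 at the other, so no direction is given for them. Endothelial genes counted 5 of 18 higher and 4 lower, or 1 and 7 under the authors' own scaling. Pecam1, an adhesion protein of vessels that germ cells also express, changed by -1.27, while Emcn and Kdr rose by 0.46 and 0.34. The call of Kdr was lost in 9 of 20 other settings. Cdh5 differed by 0.74 and -0.79 at 2 probes.

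Markers of neighbouring tissue were also read. The summed signal of 17 mesonephros and duct genes was 14.0 and 11.1 in the Cyp26b1 knockout and 12.9 and 12.2 in the double knockout, and 4 rose and 3 fell. Its defining markers were dim, with Pax2 at least 1.51-fold lower in the double knockout, where it was not well above background, and Pax8 not called. The summed signal of 18 blood and macrophage genes was 168 and 194, then 227 and 215, with 5 higher and 2 lower. Its defining markers Hba-a1 (0.37) and Ptprc (0.44) were not called, and Csf1r changed by -0.41, a call lost in 12 of 20 other settings. The part of these tissues in the changes above was not tested.

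**Figure D5:**
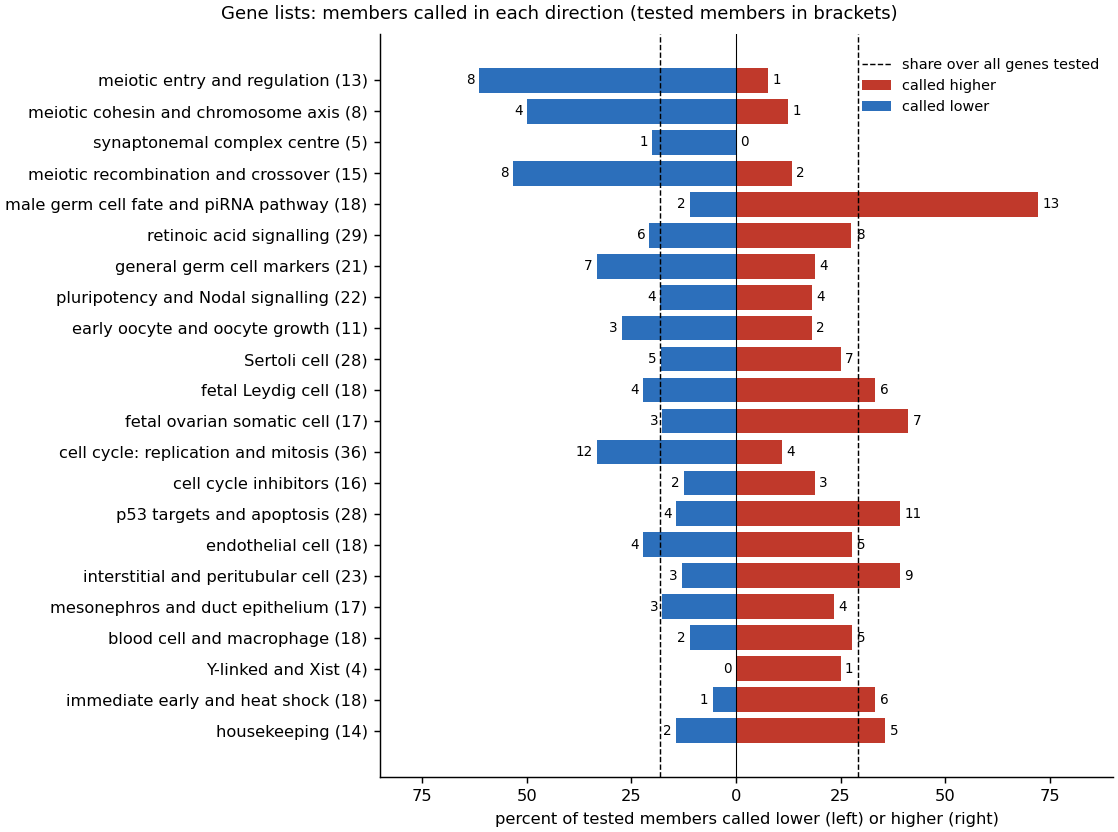
Percent of the tested members of 22 gene lists called higher (right, red) or lower (left, blue) in the double knockout than in the Cyp26b1 knockout, with the number called at each bar and dashed lines at the 29.2% and 18.2% of all genes. Of the 4 meiotic lists 3 reach farthest left, with the synaptonemal complex list near the line, and the male germ cell list farthest right, while most somatic lists lie near the lines.

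Lists that serve as checks moved as well. Of 14 housekeeping genes 5 rose and 2 fell. B2m rose by 0.99. The falls were Actb, with a change of -2.35, and the respiratory gene Sdha, with -0.67 and -0.12 at a second probe. This split turned to 1 higher and 8 lower with the authors' scaling, 2 and 7 with cyclic loess and 3 and 5 with quantile normalization. Of 18 immediate early and heat shock genes, which respond to handling of tissue, 6 rose and 1 fell, among them Egr1 by 0.93 and Junb by 0.69. Of the Y-linked genes Ddx3y rose by 0.77, and Uty, Kdm5d and Eif2s3y were not called. Xist and Sry were too dim to be tested in both genotypes. The share of housekeeping genes called, 7 of 14, was close to the 47.4% of all genes.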

How the data were processed

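Gonad RNA (0.20 µg, Cy3) was hybridised to 6 1-colour arrays, 2 per genotype. Per the submitters' processing notes the scans were read with Feature Extraction 9.5 (9.5.3.1 per the file headers). The deposited scanner files give each spot's processed signal, an intensity from which the authors' software had already subtracted background. The authors' deposited value table holds linear ratio values per probe, which followed the scanner signal with another scaling and served as an alternative.

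Here log2 processed signal minus each array's 75th percentile was used, control spots were left out, and a gene was read by its brightest probe. Names came from RefSeq accessions (assembly GRCm38.p6), so that 23374 of 41174 probes had 1 symbol and 17800 none. All 6 arrays were fitted with limma 3.58.1 in R 4.3.3 (lmFit, eBayes with trend), with Benjamini-Hochberg adjustment over 21061 features at 0.05, two-sided. The precision is limited by 2 arrays per genotype. Named genes are the 15 largest measured falls and rises, 6 bounds each way and, per list, the members with smallest p plus set markers. The members and lists were chosen with earlier results of these data known, and 5 lists after values were seen.

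Arrays with the same number deviated together (correlations 0.119, 0.226 and 0.120 for the 3 pairs of genotypes), so a fit with the array number as a block was also made; the numbers come from the deposited arrays' names. The mean spot signal was not used here, so normexp started from the median spot signal. Alternatives covered scaling, background, filter, probe choice, block and leaving out each array. The programs were tested on simulated data. Values of a few list members are not reported here, though the counts include them.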

Additional observations from a re-analysis of the deposited data

How the results depend on the processing

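The main counts were 5441 higher and 3826 lower. The scaling of the authors' value table gave 2060 higher and 7146 lower (22.4% of calls higher), median scaling 6910 and 2933 (70.2%), and setting the median change to 0, an alternative chosen after seeing the data, 3788 and 4836 (43.9%). Normexp on all spots gave 1562 and 1074. Without a filter on dim probes 10362 of 33253 features were higher. Leaving out each array gave 3844 to 4708 higher and 2828 to 3368 lower. With the replicate block the counts were 5885 and 4069, and 170 of 171 named genes kept their side of the threshold. With the motif searched only as written, 6.52% of falling and 4.73% of rising genes held it. Of the 159 called named genes, 70 kept their call in all settings and 131 without each array. These turned sign. Acta2 was at -0.20 with quantile normalization, -0.29 with the authors' scaling, -0.072 with normexp on all spots, -0.073 with the probe mean, -0.25 with cyclic loess and -0.11 with the median at 0. Median scaling gave Cyp26b1 0.075, Amh 0.049, Dhh 0.047 and Cyp17a1 0.10. The authors' scaling gave Dppa3 -0.065 and Nr2f2 -0.087, and cyclic loess Dppa3 -0.0029. Normexp on all spots gave H2-Aa 0.21, Rhox11 0.073, Pax2 0.29 and Pax8 0.26. The probe mean gave Vcam1 -0.18, Cdh5 -0.025, Pdgfra -0.083, Lhx9 -0.20 and Sox9 -0.0030. Without single arrays the ranges were -0.26 to 0.18 for Cyp26b1, -0.31 to 0.0027 for Dazl, -0.15 to 0.63 for Dppa3, -0.17 to 0.045 for Amh, -0.16 to 0.022 for Dhh, -0.21 to 0.18 for Cyp17a1 and -0.12 to 0.14 for Acta2. The cause of these shifts was not tested.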

Other observations

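Some further groups of genes, listed after their values were seen, differed between the knockouts. Of 6 tested Rhox homeobox genes of the X chromosome 4 fell, with a median of -1.51, led by Rhox11 (-2.45), Rhox6 and Rhox9. Rhox11 was not well above background on all 4 arrays and turned to 0.073 with normexp on all spots. Rhox3a went from 0.38 and 0.52 in the Cyp26b1 knockout to -1.18 and -0.60 in the double knockout, beside -2.75 and -3.09 in wild type (-1.34), while Rhox5, the founding member, differed by 0.07 and was not called. Of 11 other X-linked germ cell genes 5 fell and 2 rose. Magea4 was at least 4.06-fold lower and Tex16 changed by -1.62, whereas the RNA export factor Nxf2 rose by 1.57.

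Of 14 motile cilia genes 6 rose and 2 fell. Tekt1, a filament protein of cilia, was at -0.76 and -0.58 in the Cyp26b1 knockout, at 0.84 and 0.83 in the double knockout and at 2.06 and 2.43 in wild type (1.51), and the radial spoke gene Rsph9 rose by 1.06. Foxj1, the regulator of motile cilia, went the other way (-0.73). The summed signal of the list, relative to the 75th percentile, was 4.06 and 4.85, then 11.1 and 10.2, beside 23.3 and 27.2 in wild type.

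Of 8 liver genes 5 rose and 2 fell. Afp, the fetal serum protein, went from -1.93 and -1.04 to 0.63 and 0.52, beside 1.58 and 1.71 in wild type (2.06, SE 0.25), and Alb was at least 3.49-fold higher. Of 5 tested genes of class II histocompatibility and antigen presentation 2 fell and 2 rose. H2-Ab1 fell, and H2-Aa differed by -1.69 and -1.58 at 2 probes not well above background in the double knockout. H2-Aa turned to 0.21 with normexp on all spots. Cd74, the invariant chain, rose by 1.18 and H2-DMb1 by 0.87, with 0.18 at a second, dimmer probe of H2-DMb1.

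Of the 50 tested genes nearest to Stra8 on its chromosome, 25 on each side, 20 were higher and 8 lower, with a median of 0.12, and Podxl (-1.39) and Exoc4 (-1.18) were the only ones past 2-fold.

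Probes of the same gene did not always give the same direction. Of 4060 genes with several measured probes the direction was shared in 59.6%, among called genes in 64.9% of 2071, and among genes called at 2-fold or more in 78.3% of 207.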
